A study of Rattus norvegicus with 12 samples.

Results

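The 10 genes described here encode the calcium-regulated switch of the thin filament: the troponin T genes Tnnt1, Tnnt2 and Tnnt3, the troponin I genes Tnni1 and Tnni3, the troponin C genes Tnnc1 and Tnnc2, and the tropomyosin genes Tpm1, Tpm2 and Tpm3. They are the rows of the deposited count and FPKM tables that carry these symbols, 10 of 18469 genes, and no measured value was used to choose them. RNA of neonatal rat ventricular myocytes (NRVMs), primary heart muscle cells of newborn Sprague-Dawley rats, was sequenced in 12 libraries, 3 biological replicates in each of 4 groups. All cells were kept in DMEM with insulin, transferrin and selenium and all were transfected, either with the negative control siRNA (siNeg) or with an siRNA against Slc25a26 (siSlc25a26), the mitochondrial carrier of S-adenosylmethionine. The groups siNeg and siSlc25a26 were otherwise untreated, and in siNeg.PE and siSlc25a26.PE phenylephrine (PE), an alpha-adrenergic agonist that enlarges cardiomyocytes, was added 12 h after transfection for 36 h. The study's methods separate the myocytes from fibroblasts on a density gradient, so the cultures are enriched rather than pure. The design asks what PE did to these genes, what the siRNA did to them, and whether the effect of PE differed between the siRNAs.

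Troponin sits on tropomyosin, a coiled coil that lies along actin. Troponin C binds calcium, troponin I holds the filament off in its absence, and troponin T ties the complex to tropomyosin, whose movement then frees the myosin binding sites. Each subunit comes from a small gene family: Tnnt2, Tnni3 and Tnnc1 are the forms of the adult heart, Tnni1 is the slow skeletal form that the fetal and newborn heart also uses, Tnnt1 is the slow skeletal and Tnnt3 and Tnnc2 the fast skeletal forms, while Tpm1, Tpm2 and Tpm3 each give muscle and non-muscle tropomyosins by alternative promoters and splicing.

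Stretches of the promoters are shown for Tnnt2 and Tpm1, which rose together under PE, and for Tpm2 and Tpm3, which did not rise with them under PE in siNeg. RefSeq start sites (build GRCr8) matched 8 of the 10 genes, and no entry was used for Tnnt3 and Tnnc1. Each line gives the 250 bases before a start site, on the strand of the gene, with capitals where a searched motif matched on either strand. The motifs were the muscle element MCAT, spelled CATTCC, and the element bound by GATA factors, spelled GATAA. The TATA box was searched as TATAAA, and the CArG box and the MEF2 site by their usual consensus. None of the matches overlapped. Tpm3 has 3 listed starts and Tnnt2 has 2, and the windows are numbered in the order of the table.
Tnnt2 start 1, chr13:49818873-49819122, plus strand: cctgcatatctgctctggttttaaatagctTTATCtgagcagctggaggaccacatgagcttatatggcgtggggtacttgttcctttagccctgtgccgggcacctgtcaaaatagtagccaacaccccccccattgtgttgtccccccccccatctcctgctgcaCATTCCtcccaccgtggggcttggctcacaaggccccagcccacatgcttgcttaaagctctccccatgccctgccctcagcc
Tpm1, chr8:76543416-76543665, minus strand: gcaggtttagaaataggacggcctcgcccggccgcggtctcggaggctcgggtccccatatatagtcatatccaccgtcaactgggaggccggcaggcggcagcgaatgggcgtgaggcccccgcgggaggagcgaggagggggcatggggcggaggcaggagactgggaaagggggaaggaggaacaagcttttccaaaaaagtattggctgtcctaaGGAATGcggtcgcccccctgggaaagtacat
Tpm2, chr5:62575727-62575976, minus strand: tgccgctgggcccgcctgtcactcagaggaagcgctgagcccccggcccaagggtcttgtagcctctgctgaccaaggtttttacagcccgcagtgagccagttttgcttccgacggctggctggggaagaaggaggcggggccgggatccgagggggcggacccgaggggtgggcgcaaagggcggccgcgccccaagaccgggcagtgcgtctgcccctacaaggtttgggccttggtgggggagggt
Tpm3 start 1, chr2:177814633-177814882, plus strand: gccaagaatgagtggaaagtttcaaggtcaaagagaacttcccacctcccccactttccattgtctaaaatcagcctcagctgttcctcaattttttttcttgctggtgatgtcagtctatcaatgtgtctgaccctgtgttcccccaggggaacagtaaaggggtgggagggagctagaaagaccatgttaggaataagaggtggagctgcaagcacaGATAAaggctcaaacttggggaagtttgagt
Tpm3 start 2, chr2:177821115-177821364, plus strand: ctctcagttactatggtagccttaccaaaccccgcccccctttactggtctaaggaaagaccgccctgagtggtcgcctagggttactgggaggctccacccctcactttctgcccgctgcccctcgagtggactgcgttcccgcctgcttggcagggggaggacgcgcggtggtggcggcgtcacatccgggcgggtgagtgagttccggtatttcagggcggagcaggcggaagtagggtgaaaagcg

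MCAT matched before Tnnt2 start 1 (from base -83 to -78) and before the Tpm1 start (from base -31 to -26). Of all 33469 rat promoter windows of this length, 12.1% hold it. GATA matched in the Tnnt2 start 1 window (bases -220 to -216) and in the Tpm3 start 1 window (bases -31 to -27), against 23.5% of all windows. The Tpm2 window and the Tpm3 start 2 window held none of the 5 motifs, and their GC content was 68.8% and 63.2%, against 46.8% in the Tpm3 start 1 window. Of the windows not printed, Tnni3 held 2 GATA matches and Tnnt1 a TATA box at bases -30 to -25, which 12.9% of all windows also hold. Tnnt2 start 2, Tpm3 start 3 and Tnnc2 held no match, nor did Tnni1, which also rose with PE in siNeg. The CArG box (1.5% of all windows) and the MEF2 site (2.96%) matched before none of the 8 genes. These are matches of letters only.

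The libraries held between 24770972 and 28709049 estimated counts. Slc25a26, the targeted gene, was at 31.4 CPM ± 2.0 in siNeg and 15.1 CPM ± 0.612 in siSlc25a26 (SD, n = 3), a fall by 1.08 on the log2 scale (edgeR quasi-likelihood test, adjusted p = 1.08e-05). Under PE it was at 102 CPM ± 14.1 in siNeg.PE and 102 CPM ± 3.69 in siSlc25a26.PE, a log2 difference of -0.01 (SE 0.101, edgeR adjusted p = 0.969). The knockdown was therefore not detectable in the libraries labelled siSlc25a26.PE, and every comparison with them is between labels. The natriuretic peptide gene Nppa, a marker of the PE response, was higher by 4.63 (siNeg) and 4.51 (siSlc25a26) on the log2 scale in the PE libraries (edgeR adjusted p = 2.22e-06 and 1.99e-07). Of the cardiomyocyte markers 9 of 9 genes were detected, with a summed level of 4446 to 5545 FPKM over the 12 libraries. Detection alone does not show the identity of the cultures, since all fibroblast and smooth muscle markers listed were detected too. With PE 3 of the 9 rose and 2 fell in siNeg, and 5 rose and 2 fell in siSlc25a26. The siRNA comparisons had none higher and 3 lower without PE, and 1 higher and 3 lower under PE. The shares over all genes are given below. Markers of fibroblasts summed to 4033 to 4450 FPKM in siNeg, 2068 to 2109 in siNeg.PE, 2411 to 2698 in siSlc25a26 and 1472 to 1621 in siSlc25a26.PE. Markers of smooth muscle and mural cells summed to 2528 to 2723, 1150 to 1435, 1233 to 1437 and 1064 to 1126 FPKM in the same order, and none of the 6 genes of either list was at 0. The genes of these lists did not move as one: with PE in siNeg, Col1a1, Col1a2 and Col3a1 (collagens) fell, by 0.94, 0.80 and 1.26 on the log2 scale, while Dcn (decorin) and Pdgfra, also fibroblast markers, rose by 0.27 and 0.37 (edgeR adjusted p = 0.0407 and 0.00670) and Lum gave 0.04. In the smooth muscle and mural list 4 fell and 2 rose with PE in siNeg. With siSlc25a26 without PE, 5 of the 6 fibroblast markers and 6 of the 6 smooth muscle and mural markers fell and none rose. In these bulk samples, fewer cells of a type and less RNA per cell cannot be told apart.

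Of the 10 genes, 5 were among the most abundant transcripts of the cultures. On the FPKM scale, which is per transcript length, the mean over the 12 libraries was 5754 for Tpm1 (rank 2 of 18469), 5002 for Tnnt2 (rank 3), 3314 for Tnnc1 (rank 7), 1681 for Tnni3 (rank 28) and 1376 for Tnni1 (rank 41). Tpm2 (262 FPKM, rank 360) and Tpm3 (82.8 FPKM) followed. Tnnt1 had 0.858 FPKM, from 5 to 48 counts per library, and Tnnt3 (0.0792 FPKM) and Tnnc2 (0.0692 FPKM) had 0 to 4 counts. The order was not the same in every group: in siNeg, Tpm1 (4632 to 5175 FPKM) lay above Tnnt2 (4028 to 4529) and Tnni3 (1642 to 1954) above Tnni1 (1240 to 1304), whereas in siSlc25a26 Tpm1 (4235 to 4673) overlapped Tnnt2 (4280 to 5121) and Tnni3 (1431 to 1531) overlapped Tnni1 (1375 to 1581). Together the 10 genes took 1.40% to 1.52% of all counts in siNeg and 1.32% to 1.47% in siSlc25a26, and 1.75% to 1.93% in siNeg.PE and 1.75% to 1.91% in siSlc25a26.PE, so the PE libraries lay above the untreated ones with either siRNA.

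**Figure D1:**
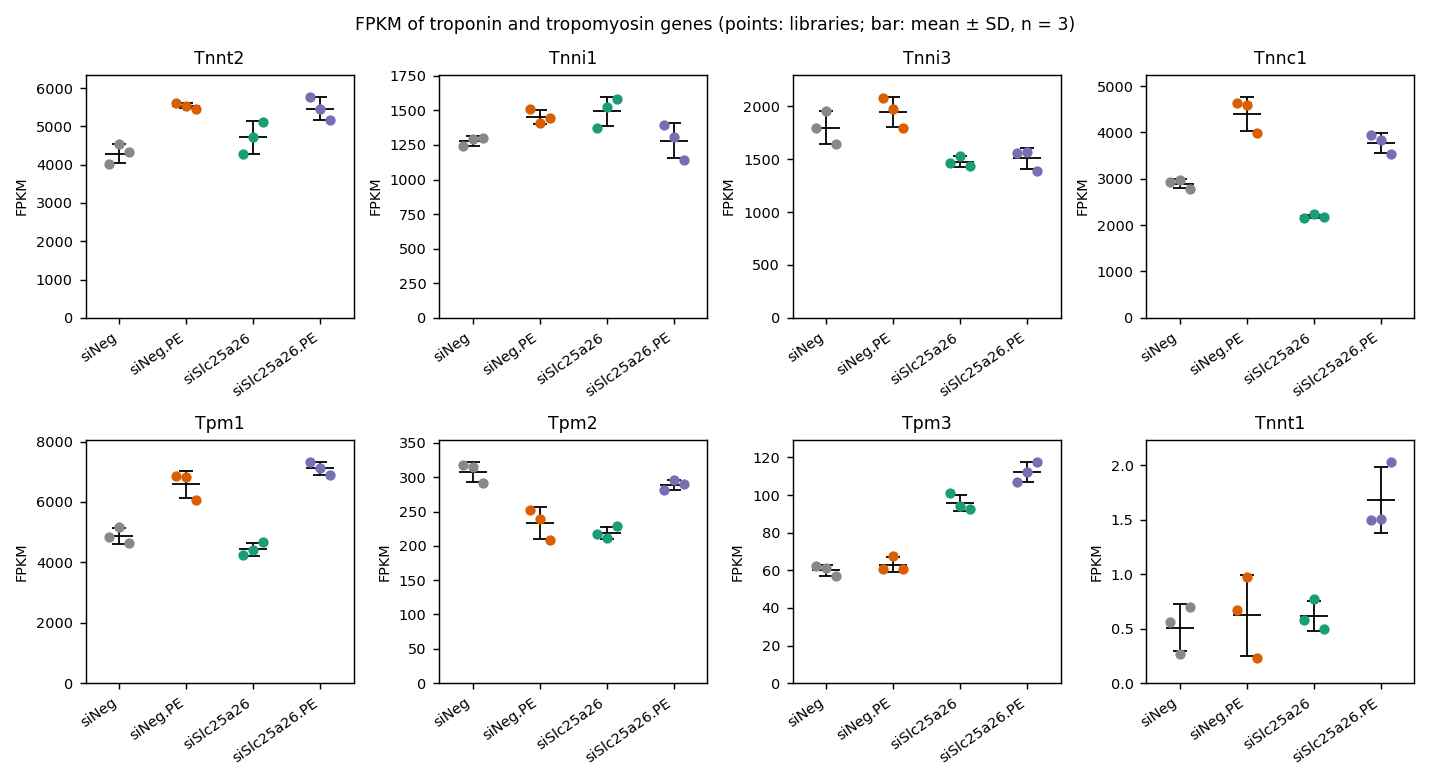
Level of 8 genes in FPKM (vertical axis, from 0) in the 4 groups (horizontal axis). Points are libraries and bars are the mean ± SD (n = 3). Tnnc1 and Tpm1 lie higher in both PE groups, Tpm3 lies higher in both siSlc25a26 groups (92.6 to 118 FPKM against 56.85 to 67.5), and Tpm2 is highest in siNeg and siSlc25a26.PE.

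In each comparison below, a gene is said to rise or fall where the adjusted p of edgeR's quasi-likelihood test (Benjamini-Hochberg over all genes tested) was under 0.05, and it is called where the fold change was also above 1.5. Fold changes come from counts, are given as log2 values with their SE, and are not levels. Of the 10 genes 8 passed the filter on low counts in each comparison, and Tnnt3 and Tnnc2 did not. PE in siNeg raised 4 and lowered 1 of the 8, where 25.2% of 13719 genes rose and 24.3% fell. PE in siSlc25a26 raised 7 and lowered none, where 26.4% of 13776 genes rose and 26.0% fell. Without PE, siSlc25a26 raised 1 and lowered 4, where 23.3% of 13829 genes rose and 21.7% fell. Under PE, the libraries labelled siSlc25a26.PE had 3 higher and 1 lower, where 20.1% of 13671 genes rose and 20.1% fell. Called genes were fewer: 1 higher with PE in siNeg (background 12.4% higher), 4 higher with PE in siSlc25a26 (10.1%), 1 higher with siSlc25a26 without PE (8.92%) and 2 higher with it under PE (7.71%), with none called lower (8.24%, 10.4%, 7.20% and 8.10% of all genes). The median log2 fold change of the 8 was 0.29, 0.55, -0.06 and 0.11 in that order, beside medians between -0.0036 and 0.015 over all genes. By the simpler measure of CPM groups that did not overlap, 4 of the 8 lay higher and 1 lower with PE in siNeg (29.4% and 29.1% of all genes), 7 higher and 0 lower with PE in siSlc25a26 (29.4% and 31.5%), 2 higher and 4 lower with siSlc25a26 without PE (31.6% and 25.3%), and 4 higher and 1 lower under PE (26.9% and 25.1%). The comparisons share groups, so their counts are not independent of each other.

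**Figure D2:**
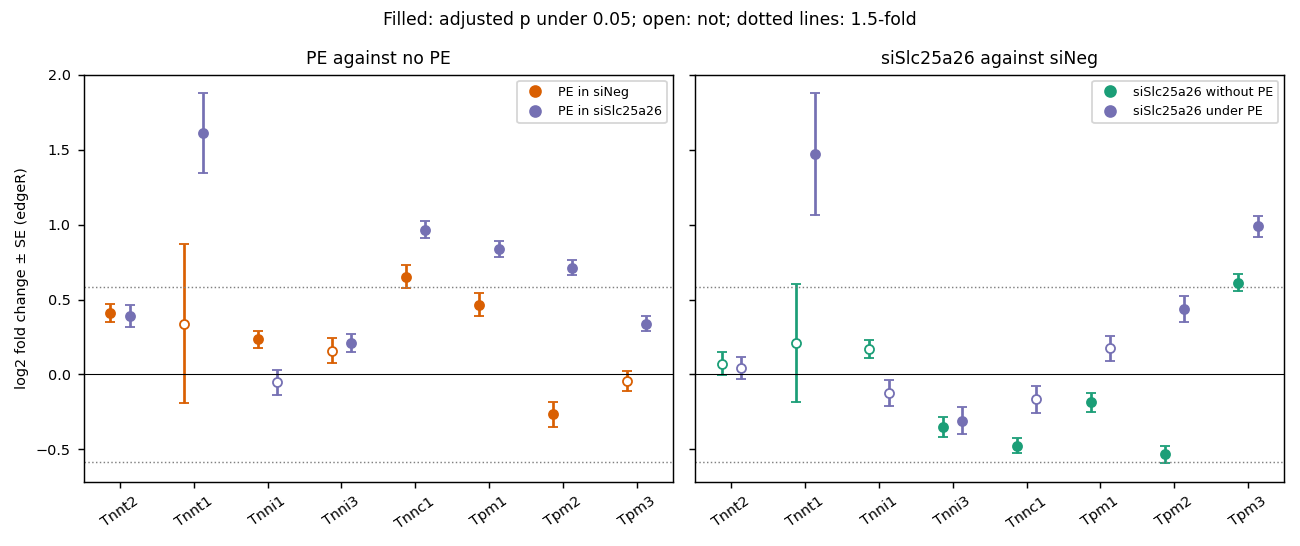
Log2 fold change (vertical axis) of the 8 tested genes for PE against no PE (left) and siSlc25a26 against siNeg (right), with bars for the SE of the edgeR fit on 3 libraries against 3. Filled points passed adjusted p under 0.05, and dotted lines mark 1.5-fold. Tpm2 lies on opposite sides of 0 for the 2 siRNAs on the left (-0.27 and 0.71) and for the 2 treatments on the right (-0.53 and 0.44).

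Troponin T came almost wholly from Tnnt2 (NCBI Gene 24837), the cardiac form, and Tnnt2 rose with PE with either siRNA. Its level was 4028, 4529 and 4322 FPKM in siNeg and 5601, 5536 and 5468 in siNeg.PE, groups that did not overlap. It was 4280, 4737 and 5121 FPKM in siSlc25a26 and 5778, 5449 and 5170 in siSlc25a26.PE, again without overlap. Tnnt2 rose with PE by 0.41 (SE 0.0608, edgeR adjusted p = 0.00106) in siNeg and by 0.39 (SE 0.0764, adjusted p = 0.00247) in siSlc25a26. On the FPKM scale the rise in siSlc25a26 was 0.22 and did not pass (limma adjusted p = 0.0836 and 0.0745 with pseudocounts of 1 and 0.1). The siRNA comparisons gave 0.07 (SE 0.0786) without PE and 0.04 (SE 0.0751) under PE, neither past the test.

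Tnnt1 (NCBI Gene 171409), the slow skeletal form, was rare but stood apart in 1 group. It had 13, 6 and 16 counts in siNeg, 15, 22 and 5 in siNeg.PE, 14, 19 and 12 in siSlc25a26, and 36, 35 and 48 in siSlc25a26.PE, so all 3 of these last libraries lay above the other 9. Tnnt1 rose with PE in siSlc25a26 by 1.61 (SE 0.267, edgeR adjusted p = 0.000967) and was higher in siSlc25a26.PE than in siNeg.PE by 1.47 (SE 0.406, adjusted p = 0.0184). The difference between the PE effects of the 2 siRNAs, 1.25 (SE 0.615), did not pass (edgeR adjusted p = 0.219), and without siSlc25a26.PE replicate 3 the siRNA difference under PE did not pass either (adjusted p = 0.0558). Even there Tnnt1 and Tnnt3 made up only 0.0273%, 0.0306% and 0.0421% of the troponin T FPKM. Tnnt3 (NCBI Gene 24838), the fast skeletal form, was at 0 counts in 2 libraries of siSlc25a26 and at 1 to 4 counts in the other 10, near the 3 counts taken as the detection limit. Tnnt1 lies next to Tnni3 in the RefSeq gene order with 0 coding genes between them, but the levels of the 2 neighbours differed by orders of magnitude in every group.

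Troponin I was shared between the cardiac Tnni3 and the fetal and slow skeletal Tnni1, and in siSlc25a26 the levels of both overlapped. Tnni3 (NCBI Gene 29248) was at 1794, 1954 and 1642 FPKM in siNeg and 2078, 1970 and 1793 in siNeg.PE. It was at 1462, 1531 and 1431 FPKM in siSlc25a26 and 1560, 1570 and 1390 in siSlc25a26.PE, so each siSlc25a26 group lay below its siNeg counterpart without overlap. Tnni3 fell with siSlc25a26 by 0.35 on the log2 scale without PE (SE 0.0691, edgeR adjusted p = 0.00342), and the difference was -0.31 under PE (SE 0.0896, adjusted p = 0.0231). The difference under PE did not pass without siNeg.PE replicate 1 or 2 or siSlc25a26.PE replicate 2 or 3 (adjusted p = 0.0591 to 0.0765). With PE it gave 0.16 in siNeg (SE 0.0840, adjusted p = 0.146) and rose by 0.21 in siSlc25a26 (SE 0.0588, adjusted p = 0.0152). That rise was 0.03 on the FPKM scale (limma adjusted p = 0.734) and did not pass without siSlc25a26.PE replicate 2 or siSlc25a26 replicate 1 (edgeR adjusted p = 0.0702 and 0.0533), nor in 1 fit of all 12 libraries (0.20, edgeR adjusted p = 0.0545). The deposited Tnni3 counts, 27630 to 39099 per library, were not whole in any of the 12 libraries. The matching fraction of a read stood in the neighbouring gene Dnaaf3 (51.2 to 105 counts), so reads were divided between the 2 genes. How many were divided cannot be read from these values.

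Tnni1 (NCBI Gene 29388) was at 1240, 1291 and 1304 FPKM in siNeg and 1511, 1406 and 1442 in siNeg.PE, and rose with PE by 0.23 (SE 0.0541, edgeR adjusted p = 0.00808), which did not pass on the FPKM scale with a pseudocount of 1 (0.18, limma adjusted p = 0.0551). It was at 1375, 1523 and 1581 FPKM in siSlc25a26, a difference of 0.17 from siNeg that just missed the test (SE 0.0623, edgeR adjusted p = 0.0524) although the groups did not overlap. It passed with DESeq2 (adjusted p = 0.0372), with limma-voom (0.0482) and on the FPKM scale (0.22, limma adjusted p = 0.0393 and 0.0348). On the FPKM scale the median over all genes was itself 0.053 and 0.069 in this comparison. In siSlc25a26.PE it was at 1393, 1306 and 1144 FPKM, overlapping siSlc25a26 (log2 difference -0.05, SE 0.0835). The PE effect in siSlc25a26 minus that in siNeg was -0.31 (SE 0.111), which did not pass (edgeR adjusted p = 0.0965). It did on the FPKM scale (-0.41, limma adjusted p = 0.0300), where the median over all genes was -0.11.

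As a share of troponin I FPKM, Tnni1 made up 40.9%, 39.8% and 44.3% in siNeg and 42.1%, 41.7% and 44.6% in siNeg.PE, which overlap. In siSlc25a26 its share was 48.5%, 49.9% and 52.5%, above every siNeg library. In siSlc25a26.PE it was 47.2%, 45.4% and 45.1%, above every siNeg.PE library and below every siSlc25a26 library. The means differed by 8.64 percentage points without PE, 3.13 under PE and -4.38 for PE in siSlc25a26, each with p = 0.1 in a two-sided exact permutation test, the smallest p that 3 against 3 allows (0.2 after adjustment over 16 comparisons of shares). The sum of Tnni1, Tnni2 and Tnni3 was 3075 FPKM ± 154 in siNeg and 2967 ± 115 in siSlc25a26, and 3400 ± 178 in siNeg.PE and 2788 ± 223 in siSlc25a26.PE (SD, n = 3). Tnni2, the fast skeletal troponin I, had 0 counts in 10 libraries and 2 in the other two.

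**Figure D3:**
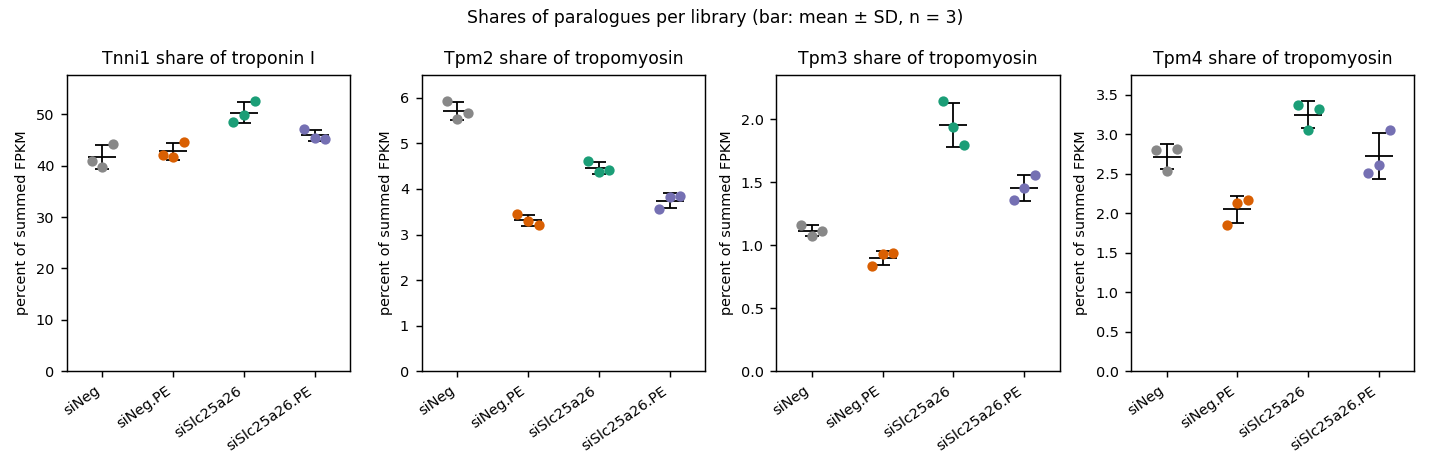
Share of Tnni1 in the troponin I FPKM and of Tpm2, Tpm3 and Tpm4 in the tropomyosin FPKM (vertical axes, percent, from 0) in the 4 groups. Points are libraries and bars are the mean ± SD (n = 3). Tnni1 is highest in siSlc25a26 (48.5% to 52.5%), Tpm2 is highest in siNeg (5.53% to 5.92%), and Tpm3 is highest in siSlc25a26 (1.79% to 2.14%).

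The troponin C gene Tnnc1 rose with PE beyond 1.5-fold with either siRNA. This gene (NCBI Gene 290561), for the calcium-binding subunit of heart and slow muscle, was at 2928, 2962 and 2779 FPKM in siNeg and 4634, 4597 and 3983 in siNeg.PE. It was at 2159, 2233 and 2173 FPKM in siSlc25a26 and 3954, 3836 and 3528 in siSlc25a26.PE, and within each siRNA the PE libraries lay above the untreated ones. Tnnc1 rose with PE by 0.65 (SE 0.0754, edgeR adjusted p = 0.000322) in siNeg and by 0.97 (SE 0.0551, adjusted p = 1.6e-06) in siSlc25a26, and was called in both. It fell with siSlc25a26 by 0.47 on the log2 scale without PE (SE 0.0491, adjusted p = 9.34e-05), and under PE the difference of -0.17 (SE 0.0918) did not pass (adjusted p = 0.182), except without siNeg.PE replicate 3 (-0.27, adjusted p = 0.0131). The PE effects differed by 0.29 between the siRNAs (SE 0.103, edgeR adjusted p = 0.0887), which did not pass, and DESeq2 gave an adjusted p of 0.0274. Tnnc2 (NCBI Gene 296369), the fast skeletal form, had 1 to 3 counts in the siNeg libraries and 0 in all 3 libraries of siSlc25a26.PE, where 0 counts allow a level of up to 0.116 to 0.119 CPM, and no fold change is given.

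Among the tropomyosins, Tpm1 (NCBI Gene 24851), the main tropomyosin of the heart, was at 4830, 5175 and 4632 FPKM in siNeg and 6865, 6825 and 6074 in siNeg.PE. It was at 4235, 4398 and 4673 FPKM in siSlc25a26 and 7326, 7115 and 6903 in siSlc25a26.PE, the highest of the 4 groups. Tpm1 rose with PE by 0.47 (SE 0.0761, edgeR adjusted p = 0.00167) in siNeg and by 0.83 (SE 0.0536, adjusted p = 3.33e-06) in siSlc25a26, where it was called. The PE effect was larger in siSlc25a26 by 0.34 (SE 0.101, edgeR adjusted p = 0.0448), a difference that did not pass without replicate 1 or 2 of siNeg, siSlc25a26 or siSlc25a26.PE or replicate 2 or 3 of siNeg.PE (adjusted p = 0.0714 to 0.105) or with no filter on low counts (edgeR adjusted p = 0.0516), and that was 0.25 on the FPKM scale (limma adjusted p = 0.194). With the siRNA alone Tpm1 fell by 0.19 (SE 0.0649, adjusted p = 0.0425), which did not pass without siNeg replicate 1 or 2 or siSlc25a26 replicate 1 or 2 (adjusted p = 0.0629 to 0.148), nor with no filter (edgeR adjusted p = 0.0542), in 1 fit of all 12 libraries (0.0838) or on the FPKM scale (-0.14, limma adjusted p = 0.273 and 0.233). Under PE the difference of 0.17 (SE 0.0863) did not pass.

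Tpm2 (NCBI Gene 500450), the beta tropomyosin of slow, fetal and smooth muscle, moved with PE in opposite directions under the 2 siRNA labels. In CPM it was at 320.0, 317 and 293 in siNeg and at 285, 269.7 and 227 in siNeg.PE, so PE lowered it. In siSlc25a26 it was at 215, 209.9 and 229 CPM and in siSlc25a26.PE at 349, 362 and 355, so PE raised it. In CPM these last libraries were the highest of all. In FPKM siSlc25a26.PE (281 to 296) was not the highest and overlapped siNeg (291 to 317). Tpm2 fell by 0.27 on the log2 scale with PE in siNeg (SE 0.0816, edgeR adjusted p = 0.0264) and rose by 0.71 in siSlc25a26 (SE 0.0504, adjusted p = 5.9e-06). It fell by 0.53 with siSlc25a26 without PE (SE 0.0585, edgeR adjusted p = 0.000131) and was higher by 0.44 under PE (SE 0.0887, adjusted p = 0.00437). The higher Tpm2 under PE stood in libraries in which the targeted gene was not lower. The difference between the PE effects was 0.96 (SE 0.104, edgeR adjusted p = 0.000278), the only 1 of the 8 genes called in that test. It passed in all 12 fits with 1 library left out (0.88 to 1.02, adjusted p up to 0.00161) and under every other alternative run. The fall with PE in siNeg did not pass without siNeg replicate 1 or 2 or siNeg.PE replicate 2 or 3 (adjusted p = 0.0537 to 0.101), and the rise in siSlc25a26 was 0.40 on the FPKM scale. Tpm2 is also made by smooth muscle cells and fibroblasts, whose markers changed as given above. The 6 smooth muscle and mural markers had a median log2 fold change of -0.75 with PE in siNeg, -1.06 with siSlc25a26 without PE, -0.35 under PE and -0.04 with PE in siSlc25a26. In the difference of PE effects 4 of the 6 passed as higher, 2 of them called (median 0.53), and none passed as lower. Over all genes 5.48% passed as higher, 2.16% were called higher and 5.73% passed as lower (median -0.05). Cnn1 (calponin) differed by 1.75 (SE 0.138, adjusted p = 6.75e-05) and Acta2 (smooth muscle actin) by 0.88 (SE 0.142, adjusted p = 0.00233), while Myh11 (smooth muscle myosin) gave 0.49 (SE 0.153, adjusted p = 0.0603). Cnn1 rose by 1.58 with PE in siNeg, where Tpm2 fell, and Acta2 and Myh11 fell there by 0.86 and 0.79. The 6 fibroblast markers had medians of -0.38 with PE in siNeg, -0.66 with siSlc25a26 without PE, -0.40 under PE and -0.26 with PE in siSlc25a26. Under PE all 6 of them passed as lower (20.1% of all genes did), where Tpm2 was higher. In the difference of PE effects 2 of the 6 fibroblast markers passed as higher (median 0.10) and none as lower, beside 5.48% and 5.73% of all genes. The part of other cells in the Tpm2 values was not tested.

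Tpm3 (NCBI Gene 117557), a slow muscle and cytoskeletal tropomyosin, was higher in both siSlc25a26 groups than in both siNeg groups. In CPM it was at 103, 99.5 and 94.3 in siNeg and 95.9, 104 and 90.6 in siNeg.PE, which overlap. It was at 160.5, 152 and 151 CPM in siSlc25a26 and at 190.7, 191 and 199.5 in siSlc25a26.PE, all above the 6 siNeg libraries. Tpm3 rose with siSlc25a26 by 0.61 (SE 0.0548, edgeR adjusted p = 3.69e-05) without PE and was higher by 0.99 (SE 0.0686, adjusted p = 9.5e-06) under PE, and was called in both. Without siNeg replicate 3 or siSlc25a26 replicate 1 the former still passed but lay under 1.5-fold. PE gave -0.04 in siNeg (SE 0.0665, adjusted p = 0.616) and raised it by 0.34 in siSlc25a26 (SE 0.050, adjusted p = 0.000497). The PE effects differed by 0.36 (SE 0.0827, edgeR adjusted p = 0.0160), but on the FPKM scale by 0.16, which did not pass (limma adjusted p = 0.189). The higher Tpm3 under PE stood in libraries in which the targeted gene was not lower.

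Tpm4, a cytoskeletal tropomyosin outside the 10 genes, was also highest in siSlc25a26.PE. It was at 349, 360.1 and 365 CPM in siNeg, 358, 377 and 349 in siNeg.PE, 402, 393 and 411 in siSlc25a26, and 535, 552 and 603 in siSlc25a26.PE. Tpm4 was higher in siSlc25a26.PE than in siNeg.PE by 0.63 (SE 0.0694, edgeR adjusted p = 0.000167), and the PE effects differed by 0.47 (SE 0.0751, adjusted p = 0.00218). In all, Tpm1 made up 90.1% to 90.9% of the tropomyosin FPKM in siNeg, 93.7% to 93.9% in siNeg.PE, 89.9% to 90.6% in siSlc25a26 and 91.5% to 92.6% in siSlc25a26.PE. Its share was higher with PE in either siRNA by 3.27 and 1.75 percentage points and differed by -1.66 between siNeg.PE and siSlc25a26.PE, each without overlap (two-sided exact permutation p = 0.1, adjusted 0.2). The Tpm2 share was 5.53% to 5.92%, 3.21% to 3.45%, 4.36% to 4.61% and 3.56% to 3.85% in the order of the groups, and that of Tpm3 was 1.07% to 1.16%, 0.832% to 0.937%, 1.79% to 2.14% and 1.35% to 1.56%. The 4 tropomyosin genes summed to 5393 FPKM ± 287, 7028 ± 472, 4910 ± 232 and 7726 ± 186 (SD, n = 3).

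Both the deposited counts and the FPKM values are known for each gene, and their ratio, with each library's own median removed, gives the transcript length that the FPKM assumed. This implied length can change where reads are assigned to transcripts of different length, and it was calculated for the 7261 genes with at least 200 counts and 5 FPKM in each library. For Tnnt2, Tnni1, Tnni3, Tnnc1 and Tpm1 it stayed between 98.4% and 101.5% of the siNeg mean in all libraries. For Tpm2 it was 106.0% to 106.6% in siNeg.PE, 100.6% to 100.9% in siSlc25a26 and 110.6% to 111.5% in siSlc25a26.PE, so the length was greater in the PE groups. For Tpm3 it was 88.9% to 90.7% in siNeg.PE, 98.97% to 100.5% in siSlc25a26 and 94.4% to 97.0% in siSlc25a26.PE, so it was shorter with PE. The mean of Tpm2 rose by 6.33% with PE in siNeg, where 1.56% of genes had a longer implied length by over 5% without overlap, and by 10.2% in siSlc25a26, where 0.854% did. The mean of Tpm3 changed by -10.3% with PE in siNeg, where 0.661% of genes were shorter to that degree, and by -4.44% in siSlc25a26, short of the 5% that 1.14% of genes passed. Tpm3 was 6.25% longer in siSlc25a26.PE than in siNeg.PE (0.826% of genes). Without PE, siSlc25a26 changed the implied length of Tpm2 by 0.84% and of Tpm3 by -0.25%, where 1.05% of genes were longer and 1.05% shorter by over 5%. These are descriptions with no test, and they do not name the transcripts.

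**Figure D4:**
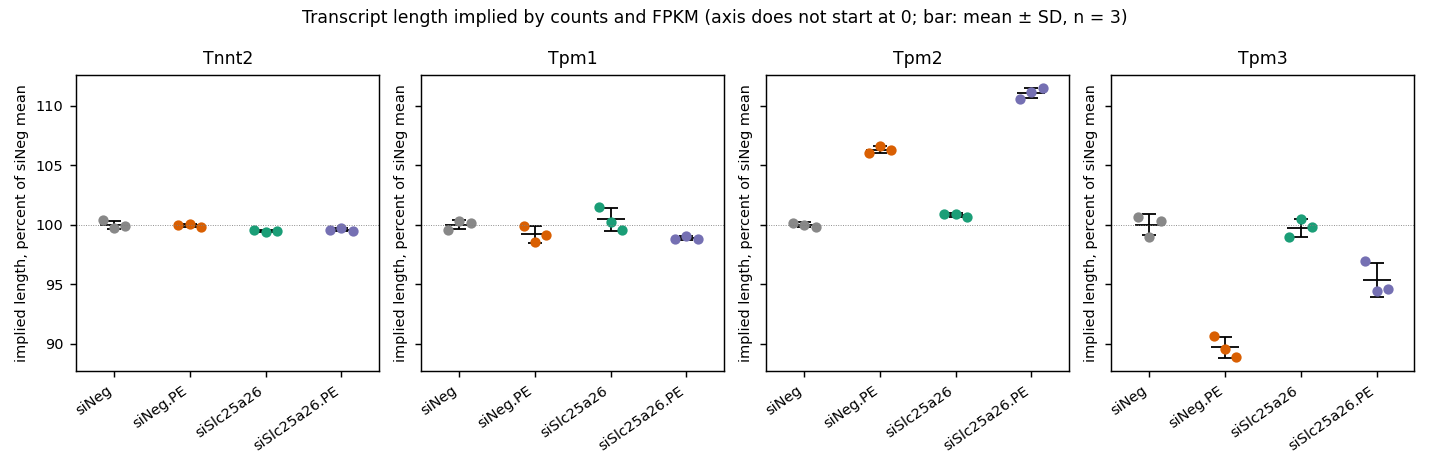
Transcript length implied by the ratio of counts to FPKM, as percent of the siNeg mean (vertical axis, which does not start at 0), in the 4 groups for Tnnt2, Tpm1, Tpm2 and Tpm3. Points are libraries and bars are the mean ± SD (n = 3). Tnnt2 and Tpm1 stay near 100%, Tpm2 lies above it in both PE groups and Tpm3 below it.

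The difference between the PE effects was tested in all 12 libraries together. Among the 8 genes the PE effect was higher in siSlc25a26 for 3 (Tpm1, Tpm2 and Tpm3) and lower for none, where 5.48% of 14097 genes passed as higher and 5.73% as lower. Of these only Tpm2 was called at 1.5-fold, where 2.16% of genes were called higher and 3.34% lower. Tnnt2 (-0.04, SE 0.106) and Tnni3 (0.03, SE 0.114) gave differences near 0 that did not pass. The median difference was 0.32 over the 8 genes and -0.05 over all genes. In the FPKM values the whole distribution lay lower with PE in siSlc25a26, with a median over all genes of -0.13 or -0.17 for the 2 pseudocounts and of -0.11 or -0.14 for the difference of PE effects. The split of called genes moved with it, from 1389 higher and 1436 lower in counts to 564 higher and 1497 lower with a pseudocount of 1 for PE in siSlc25a26, and from 305 and 471 to 164 and 538 for the difference.

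The pattern over the 12 libraries was shared by few pairs of the genes. In log2 CPM the correlation was 0.93 between Tnnc1 and Tpm1, 0.91 between Tnnt2 and Tpm1 and 0.80 between Tnnt2 and Tnnc1, and -0.63 between Tnni3 and Tpm3 and -0.35 between Tnni1 and Tpm2. The libraries fall in 4 groups, so these values describe group means more than single libraries. Among 14096 genes, the most like Tnnt2 was Casq2 (calsequestrin, r = 0.973), the calcium store protein of the sarcoplasmic reticulum. The most like Tnnc1 was Ppif (mitochondrial cyclophilin, r = 0.993), and the most like Tnni3 were Atp5pd and Atp5po (r = 0.988 and 0.980), subunits of the ATP synthase. For Tpm1 it was Cd151 (a tetraspanin, r = 0.990). Tpm2 was most like Myo1c (an unconventional myosin, r = 0.954) and Plec (plectin, r = 0.936), and Tpm3 most like Cxcl16 (a chemokine, r = 0.990). The closest to Tnni1, Pim2, reached 0.864, and for Tnnt1, whose counts are few, Nell2 reached 0.954. The closest match reached at least 0.864 for each of the 8 genes.

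Among the partners of the troponins and tropomyosins on the thin filament, 17 genes were listed and 15 tested, and with either siRNA 10 rose and 2 fell with PE. PE in siNeg called 8 higher and 2 lower, where 12.4% of all genes were called higher and 8.24% lower (median log2 fold change 0.73, all genes 0.00016). PE in siSlc25a26 called 7 higher and 2 lower, against 10.1% and 10.4% (median 0.50, all genes -0.0036). Acta1 (skeletal actin) rose by 3.18 (SE 0.249) and 5.15 (SE 0.241) with PE in siNeg and in siSlc25a26, and Actc1 (cardiac actin) by 1.60 (SE 0.117) and 2.54 (SE 0.0507). Cfl2 (muscle cofilin, which severs actin) rose by 1.06 and 1.72, Nrap (myofibril assembly) by 0.94 and 1.32, Lmod2 (leiomodin, a nucleator at the pointed end) by 0.76 and 1.21, and Cap2 (an actin-binding protein) by 0.73 and 0.42. Lmod1, the smooth muscle leiomodin, fell by 1.43 and 0.97, and Tmod4, the skeletal tropomodulin, by 1.40 and 1.99. All of these had edgeR adjusted p of at most 0.000858.

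With siSlc25a26 and no PE the partners called were Cap2, higher by 0.84 (SE 0.0596), and Lmod1 and Tmod2, with log2 fold changes of -0.81 (SE 0.0977) and -1.04 (SE 0.181), of 15 tested (median -0.01, all genes 0.015), where 8.92% of all genes were called higher and 7.20% lower. Under PE (7.71% and 8.10%) the 4 called were all higher in siSlc25a26.PE: Tpm4 as above, Acta1 by 1.44 (SE 0.227, edgeR adjusted p = 0.00120), Actc1 by 0.66 (SE 0.119, adjusted p = 0.00235) and Lmod2 by 0.61 (SE 0.0814, adjusted p = 0.000508). The difference of PE effects (2.16% and 3.34%) called 3 partners, all higher: Acta1 (1.95, SE 0.361), Actc1 (0.92, SE 0.139) and Cfl2 (0.64, SE 0.111), with edgeR adjusted p of 0.00488, 0.00174 and 0.00332. The actins thus had a larger PE effect in siSlc25a26, as did Tpm2, whereas Tnnt2 and Tnni3 did not pass that test. Tpm1 and Tpm3 passed it in counts, under 1.5-fold, but did not pass on the FPKM scale.

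Of 18 genes for kinases and phosphatases that act on troponin or tropomyosin, all were tested with PE in siNeg, which called 5 higher and 1 lower (12.4% and 8.24% of all genes, median 0.08 beside 0.00016). With PE in siSlc25a26, 17 were tested and 6 called higher and 1 lower (10.1% and 10.4%, median 0.17 beside -0.0036). Prkca (protein kinase C alpha) rose by 0.83 (SE 0.0986) and 0.91 (SE 0.0830), and Ppp1cb (a catalytic subunit of protein phosphatase 1) by 0.89 (SE 0.118) and 0.84 (SE 0.101). Prkcb rose by 1.79 (SE 0.376) in siNeg, and in siSlc25a26 Dapk3 rose by 0.85 (SE 0.0574), Ppp2ca by 0.59 (SE 0.0494), and Dapk1 fell by 0.62 (SE 0.0628). Pak1 fell with PE in siNeg by 0.64 (SE 0.120), was higher by 0.95 (SE 0.107, edgeR adjusted p = 0.000196) in siSlc25a26.PE than in siNeg.PE, and differed in its PE effect by 0.82 (SE 0.140, adjusted p = 0.00310). The Prkcb difference under PE was -2.03 (SE 0.327). Prkcb had few counts per library: 7 to 17 in siNeg, 28 to 47 in siNeg.PE, 6 to 12 in siSlc25a26 and 7 to 11 in siSlc25a26.PE. For siSlc25a26 without PE it did not pass the filter. The kinase genes Prkaca and Prkacb of the beta-adrenergic pathway, which act on Tnni3, were not called in any comparison.

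Of 12 listed splicing regulators 11 were tested, and Qki was not analysed here. PE in siNeg raised 4 and lowered 3 (25.2% and 24.3% of all genes), and called 1 higher and 1 lower (12.4% and 8.24%). PE in siSlc25a26 raised 4 and lowered 3 (26.4% and 26.0%), and called none higher and 1 lower (10.1% and 10.4%). The siRNA comparisons had 4 higher and 1 lower without PE (23.3% and 21.7%) and 4 higher and 1 lower under PE (20.1% and 20.1%). Mbnl2, which promotes adult splice forms, rose with PE in siNeg by 0.60 (SE 0.133, edgeR adjusted p = 0.00652). Rbfox1, a splicing factor of heart and brain, was the regulator called lower in every comparison: its log2 fold change was -1.21 (SE 0.173) and -2.11 (SE 0.187) with PE in siNeg and siSlc25a26, -0.76 (SE 0.142) with siSlc25a26 alone and -1.66 (SE 0.221) under PE. Its level was low throughout, with means of 1.57 FPKM in siNeg, 0.667 in siNeg.PE, 0.967 in siSlc25a26 and 0.203 in siSlc25a26.PE (20 to 27 counts). The paralogue Rbfox2 had means of 39.8, 39.5, 43.5 and 44.5 FPKM in the same order. The PE effects on Rbfox1 differed by -0.92 (SE 0.247, edgeR adjusted p = 0.0320), which did not pass without replicate 1 or 2 of siNeg, siSlc25a26 or siSlc25a26.PE or replicate 2 or 3 of siNeg.PE (adjusted p = 0.0516 to 0.0908). Nor did it pass with limma-voom (adjusted p = 0.0602) or on the FPKM scale (-0.08 and -0.68 with pseudocounts of 1 and 0.1, limma adjusted p = 0.633 and 0.0774). Celf1, Rbm20 and Rbm24, also regulators of cardiac transcripts, were not called in any comparison. Whether these genes bear on the implied lengths of Tpm2 and Tpm3 was not tested.

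The skeletal muscle markers were read beside Tnnt1. Of 11 listed, Myod1, Myf5 and Myh4 were not analysed here, and of the other 8 only 2 passed the filter for PE in siSlc25a26. Their sum was 931 to 1038 FPKM in siNeg, 571 to 658 in siNeg.PE, 695 to 727 in siSlc25a26 and 343 to 410.4 in siSlc25a26.PE. Ckm, the muscle creatine kinase that the heart also makes, carried most of it, with 342 to 410 FPKM in siSlc25a26.PE. Myog and Pax7 were at 0 in that group. The sum thus describes Ckm, and the source of the Tnnt1 reads was not tested. Endothelial markers (4.64 to 5.92 FPKM summed over 4 genes) and macrophage markers (6.37 to 18.6 FPKM over 4 genes, highest in siNeg) were low throughout.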

How the data were processed

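The authors deposited estimated counts per gene (about 21% of values per library were not whole and all were rounded here) and FPKM values, which scale by length and library total. The submitters' processing notes name HISAT, Bowtie2 and Rnor_6.0 without roles. The counting program, annotation and strandedness are not given in the sources used here. Groups, replicates and times follow the sample labels, and the paper's own text gives other times and another siRNA target. R 4.3.3 with edgeR 4.0.16 was used: TMM scaling, filterByExpr, a quasi-likelihood fit of the groups compared without a replicate block, and Benjamini-Hochberg adjustment over all genes tested. The PE effects were compared in 1 fit of all 12 libraries. Alternatives were DESeq2 1.42.0, limma 3.58.1 (voom, and log2 FPKM with pseudocounts of 1 and 0.1), other size factors, filters (none, or 10 counts in every library), a replicate block, and each library left out. Tested on simulated data with 200 genes changed 2-fold, the PE comparison in siNeg recovered 172 with 4 false calls among 13661 genes, and the difference of PE effects recovered 159 with 5 among 13941. At these depths the detection limit of 3 counts is 0.0993 to 0.120 CPM on the TMM scale, and limits cover counting error only.

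All 10 genes were named, with Slc25a26, Nppa, Tnni2 and Tpm4, the 3 most correlated genes for each tested gene (the leading 1 or 2 are printed), and up to 6 called genes per list and comparison by adjusted p, of which some kinase results are not reported here. Genes and lists were chosen with earlier results of these data known, and the implied length after seeing the data. Markers named beside Tpm2 were picked after their values were seen. No deposited column was left unmapped.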

Additional observations from a re-analysis of the deposited data

Results flagged for a closer look

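The PE effect differed between siSlc25a26 and siNeg, in the edgeR fit of all 12 libraries, for Tpm2 by 0.96, for Tpm3 by 0.36, for Tpm1 by 0.34 and for the paralogue Tpm4 by 0.47 on the log2 scale (adjusted p = 0.000278, 0.0160, 0.0448 and 0.00218), each higher in siSlc25a26. The Tpm1 and Tpm3 differences did not pass on the FPKM scale. Slc25a26 itself differed by 1.06 (adjusted p = 0.000466), since PE raised it by 1.69 in siNeg and by 2.77 in siSlc25a26, and its mean was 102 CPM in both PE groups.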

How the results depend on the processing

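Counts of called genes kept within 1.5 times the reported number under DESeq2, limma-voom, both FPKM pseudocounts, DESeq2 size factors, no filter, the replicate block and 1 fit of all libraries. Without the fold threshold the counts were 4 higher and 1 lower for PE in siNeg, 4 lower for siSlc25a26 without PE, 1 lower under PE, 7 higher for PE in siSlc25a26 and 3 higher for the difference of PE effects, by construction. With at least 10 counts in every library 1 gene was called higher under PE, since Tnnt1 was not tested. With 1 library left out, the genes called with siSlc25a26 without PE ranged from 0 to 1 higher (Tpm3 lost without siNeg replicate 3 or siSlc25a26 replicate 1) and from 0 to 1 lower (Tpm2 gained without siNeg replicate 3), and under PE from 1 to 2 higher (Tnnt1 lost without siSlc25a26.PE replicate 3).

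Directions that reversed belonged to values that did not pass the test. On the FPKM scale (pseudocounts of 1 and 0.1) these were Tpm3 with PE in siNeg (0.067 and 0.068), Tpm4 with PE in siNeg (-0.026 and -0.027), Tnnt2 under PE (-0.020 for both) and Tnni3 in the difference of PE effects (-0.087 for both). With no filter Tpm4 with PE in siNeg was -0.0028, and Slc25a26 under PE was 0.0044 with limma-voom, 0.0032 with the replicate block and 0.0045 in 1 fit of all libraries. With 1 library left out, PE in siNeg ranged from -0.022 to 0.017 for Tpm4 and from -0.12 to 0.73 for Tnnt1. Without PE, siSlc25a26 ranged from -0.094 to 0.47 for Tnnt1 and from -0.0017 to 0.14 for Tnnt2. Under PE it ranged from -0.135 to 0.084 for Slc25a26 and from -0.0029 to 0.10 for Tnnt2. Tnni1 with PE in siSlc25a26 ranged from -0.12 to 0.028, and the difference of PE effects from -0.037 to 0.087 for Tnni3 and from -0.10 to 0.036 for Tnnt2. In percentage points the Tnnt1 and Tnnt3 share ranged from -0.0043 to 0.0031 for PE in siNeg and from -0.0026 to 0.0013 for siSlc25a26 without PE, the Tnnc2 share from -0.0036 to 0 for PE in siSlc25a26, and the Tpm1 share without PE from -0.31 to 0.090, or 0.38 without Tpm4. The cause was not tested.

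Over all genes, log2 FPKM with a pseudocount of 1 called 857 higher and 733 lower for PE in siNeg (1708 and 1130 in counts), 832 and 452 for siSlc25a26 without PE (1233 and 996), and 623 and 756 under PE (1054 and 1108). With a pseudocount of 0.1, PE in siSlc25a26 called 824 and 2214, and the difference 218 and 768. Left-out libraries gave 301 to 646 lower in the difference, against 471.

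In no comparison were the deviations of all 3 same-numbered pairs of replicates correlated above 0.1 (-0.091 to 0.217, all positive for PE in siNeg and under PE), and 5, 2, 4 and 0 of 6 libraries correlated best with their own number for PE in siNeg, siSlc25a26 without PE, under PE and PE in siSlc25a26, so the numbers were not taken to pair the samples. A partial pairing was not tested. With a replicate block the number of the 8 genes called was the same and the number of all genes called lower in the difference of PE effects went from 471 to 619, Tnni3 with PE in siNeg (adjusted p = 0.0120), Tnni1 without PE (0.0355), Tnnc1 and Tpm1 under PE (0.0318 and 0.0368) and Tnnc1 in the difference (0.0300) passed the edgeR test, and Tpm1 without PE did not (0.0616). Of the troponin and tropomyosin genes, depth limits Tnnt1, Tnnt3, Tnnc2 and Tnni2 alone. Other named genes also had few counts, such as Prkcb (6 to 12 in siSlc25a26) and Rbfox1 (20 to 27 in siSlc25a26.PE).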
